A study of Homo sapiens with 6 samples.

Results

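Molecular chaperones of the HSP70, HSP110 and HSP60 families, with their BAG, prefoldin, phosducin-like and FKBP partners, are described here in Hs578T cells transfected with an siRNA against CSRP2. Members were taken by symbol, as every gene of the array's gene table named HSPA, HSP90, HSPD1, HSPE1, HSPH1, DNAJ, CCT, BAG, PFDN, FKBP or PDCL, without small heat shock proteins, antisense symbols and pseudogenes. Of 14884 named genes, 32 matched, and 28 remained after 2 antisense symbols and 2 pseudogenes were left out. The search named HSP90, DNAJ and CCT genes too, but of the 28 genes 0 carried an HSP90 symbol, 0 a DNAJ symbol and 0 a CCT symbol. HSPA8, HSPA5 and HSPE1 were not analysed here either. Relatives under other symbols, such as the mitochondrial HSP90 TRAP1 and the J-proteins SEC63 and HSCB, were read with the further lists below. The 28 genes are 9 of HSP70, 3 of HSP110, 1 of HSP60, 5 of BAG, 5 of prefoldin, 3 phosducin-like genes and 2 of FKBP.

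The study asked how loss of CSRP2, an actin-bundling LIM domain protein, changes transcripts of a breast cancer line. Hs578T is a mesenchymal, triple-negative human breast carcinoma line. Its cells received either the siRNA against CSRP2 (siCSRP2, 3 arrays) or a non-targeting siRNA (siControl, 3 arrays), both with Lipofectamine 2000, in DMEM with 10% fetal bovine serum and 0.01 mg/ml insulin. Cells were seeded at 150000 per well, replated 24 h after transfection at 100000 per well, and lysed 48 h later for Affymetrix HuGene 2.0 arrays. The labels name no separate cultures behind the replicate numbers, so the p-values reflect only array-to-array spread, possibly technical. The labels give neither the sequence of an siRNA nor the number of siRNAs used, and they describe no untransfected cells.

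Chaperones bind proteins that are not yet folded or have lost their fold. HSP70 proteins grip and release client chains in a cycle driven by ATP, which HSP110 and BAG proteins speed up by exchanging the nucleotide. Prefoldin carries new actin and tubulin chains to the barrel-shaped chaperonin CCT, whose activity phosducin-like proteins tune, while HSP60 forms the chaperonin of mitochondria and FKBP proteins turn peptide bonds next to proline. Heat shock factor HSF1 drives many of these genes during protein stress by binding repeats of the heat shock element.

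Each array gave 1 log2 value per probe set, and 53617 probe sets were read. Values are compared between arrays for the same probe set. Where 1 gene is subtracted from another within an array, the change of that difference between the groups is what is compared, since probe sets of different genes differ in brightness. Line markers VIM, FN1, AXL and CD44 read between 6.21 and 11.23 on all arrays. ESR1, PGR, EPCAM and KRT19 read between 2.28 and 3.63, CD14 between 2.56 and 2.71, and PECAM1 and VWF between 2.34 and 2.69, against a median gene mean of 2.99. CDH2, SPARC, CDH1, PTPRC, CD3E and CDH5 were not analysed here. siControl 3 stood apart: on the first principal component (63.2% of the variance) the siCSRP2 arrays lay at 14.01, 20.03 and 30.65, siControl 1 and siControl 2 at -31.46 and -31.18, and siControl 3 at -2.05. CSRP2 itself (probe set 16767837) read 3.25, 3.76 and 4.26 on siCSRP2 arrays, against 3.69, 4.01 and 4.35 on siControl arrays. The groups overlapped and the difference of -0.26 did not pass (SE 0.26, limma adjusted p = 0.583, exact permutation p = 0.5, two-sided). Between arrays of equal replicate number the differences were -0.44, -0.24 and -0.09. Blocked on that number, CSRP2 did not pass either (limma adjusted p = 0.188). The target thus does not check the labels, and siCSRP2 means the arrays labelled so. The arrays read RNA pooled over a culture, so a change in every cell and a change in the share of some cells cannot be told apart.

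Of the 28 chaperone genes, 4 differed past the test between siCSRP2 and siControl cells. PDCL3, a partner of the chaperonin CCT, rose 2.93-fold and the prefoldin subunit PFDN2 rose 1.5-fold. HSPA4L, an HSP110 protein, fell 1.96-fold and FKBP7, a proline isomerase of the endoplasmic reticulum, fell 1.77-fold. The remaining 24 of the 28 genes did not pass the test, and among them no difference exceeded 0.53 log2 units in size. The 4 genes make up 14.3% of the 28, where 7.34% of all 14884 genes passed in either direction. By direction, 0.8% of all genes rose and 6.54% fell, and 2 of the 28 did each. With so few genes, a gap between these shares was not tested. The members are bright: 23 of the 28 had a mean above that of the median gene. Without the dimmest 50% of genes, 4 of 23 members passed, beside 1290 of 7442 genes. The median log2 differences were then -0.14 over the members and -0.15 over all genes kept. The split over all genes was 89.1% falls on the values as deposited and 76.0% after quantile normalization. Over the 28 genes the median log2 difference was -0.07, beside 0.02 over all genes, with 13 differences above 0 and 15 below.

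**Figure D1:**
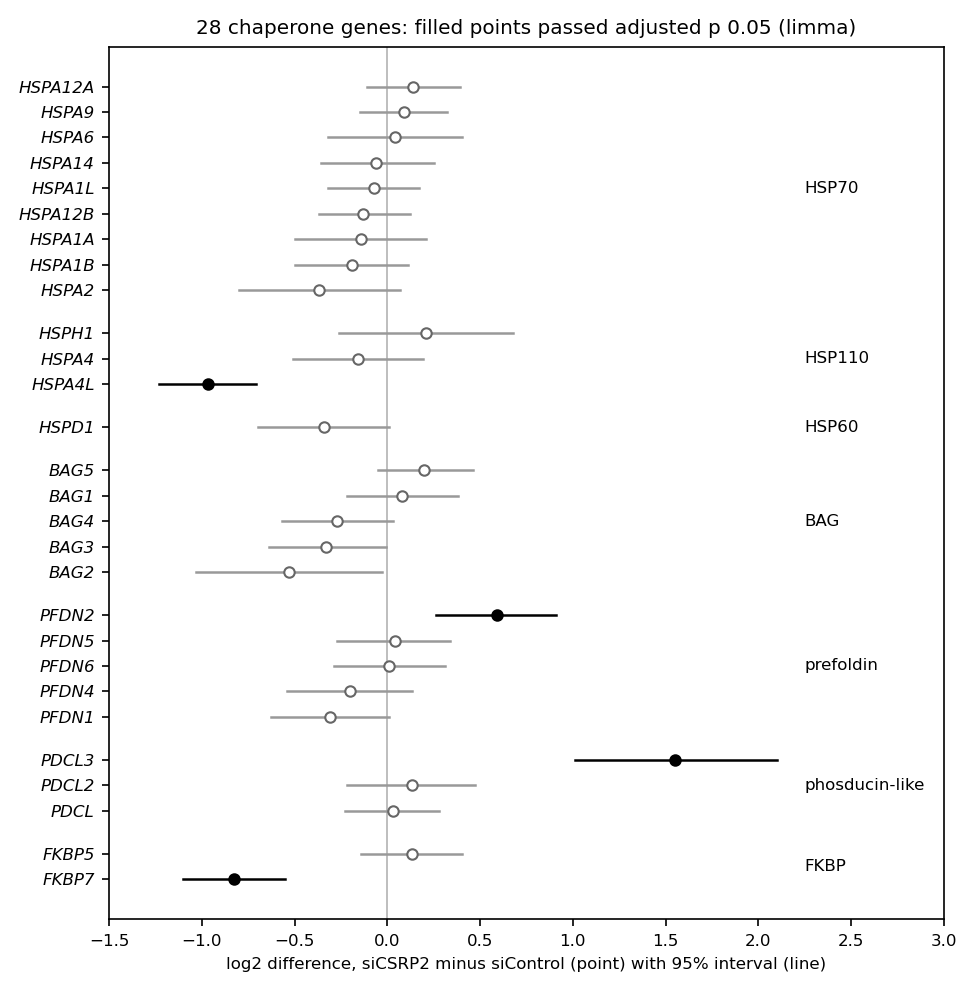
Log2 difference (siCSRP2 minus siControl, horizontal axis) of the 28 chaperone genes, ordered by family down the page, with 95% intervals from limma as lines. Filled points passed adjusted p 0.05: PDCL3 (1.55) and PFDN2 (0.59) lie right of 0, HSPA4L (-0.97) and FKBP7 (-0.83) left of it, and the open points lie between -0.53 and 0.21.

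PDCL3 (probe set 16943433, chromosome 2) encodes a phosducin-like protein that binds CCT and affects the folding of actin and tubulin. It read 6.21, 7.0 and 7.05 on the siCSRP2 arrays, against 4.93, 5.52 and 5.15 on the siControl arrays. The groups did not overlap, and siCSRP2 1 was the lowest of the siCSRP2 arrays, as siControl 1 was of the controls. The means were 6.75 ± 0.47 in siCSRP2 and 5.2 ± 0.3 in siControl cells (SD, n = 3 each), a log2 difference of 1.55 (SE 0.24, 95% interval 1.01 to 2.1, limma adjusted p = 0.0111). Between arrays of equal replicate number the differences were 1.29, 1.48 and 1.89. This was the one difference above 2-fold among the 28 genes. The call did not hold without siCSRP2 2 (limma adjusted p = 0.057) or siControl 1 (0.053), while the log2 difference stayed at 1.43 and 1.42. At those settings 194 and 157 of all genes passed, against 1093 with every array.

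Its relatives gave no such difference. PDCL, which helps CCT assemble G protein beta subunits, read 3.88, 3.76 and 4.01 in siCSRP2 and 3.89, 3.91 and 3.76 in siControl cells, and PDCL2, known from mouse for its part in sperm formation, read 3.36, 3.02 and 3.22 against 3.34, 2.89 and 2.98. Both pairs of groups overlapped, with log2 differences of 0.03 for PDCL (95% interval -0.23 to 0.28) and 0.13 for PDCL2 (-0.22 to 0.47). PDCL2 read near the median gene mean of 2.99, where a fold can understate a change. Taken within each array, PDCL3 minus PDCL was 2.33, 3.24 and 3.04 in siCSRP2 and 1.03, 1.61 and 1.39 in siControl cells. That contrast differed by 1.53 between the groups without overlap. The exact permutation p was 0.1, two-sided, which is the smallest that 3 against 3 arrays can give, and it was 0.1 as well after adjustment over 5 such contrasts chosen after the values were seen.

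Prefoldin, the carrier of actin and tubulin chains to CCT, was represented among the members by PFDN1, PFDN2, PFDN4, PFDN5 and PFDN6. The subunit VBP1, which the symbol rule did not take, is given with the further lists. PFDN2 (probe set 16695572, chromosome 1), a beta-type subunit, read 7.46, 7.12 and 7.41 on the siCSRP2 arrays, against 6.63, 6.63 and 6.97 on the siControl arrays. All siCSRP2 values lay above all siControl values, the nearest being siCSRP2 2 and siControl 3. The log2 difference was 0.59 (SE 0.14, 95% interval 0.26 to 0.91, limma adjusted p = 0.0453). PFDN2 was the weakest of the 4 calls: it did not pass without any 1 array other than siControl 3 (adjusted p 0.0691 to 0.186), nor after median centring (0.0532), with a trended and robust variance (0.0671), or adjusted over every probe set (0.117). The log2 difference stayed between 0.5 and 0.7 throughout.

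The other prefoldin subunits did not pass. PFDN1, also of the beta type, read 4.52, 4.58 and 4.3 in siCSRP2 and 4.84, 4.95 and 4.54 in siControl cells, a log2 difference of -0.31 (95% interval -0.63 to 0.01, limma adjusted p = 0.225). PFDN4 gave -0.20 (-0.54 to 0.13). PFDN5, the alpha-type subunit that also binds MYC, gave 0.04 (-0.27 to 0.34) and PFDN6 gave 0.01 (-0.29 to 0.31). The groups overlapped for all 4, so PFDN2 was higher while these 4 prefoldin members showed no difference past the test. Within arrays, PFDN2 minus the mean of these 4 was 3.37, 3.05 and 3.46 in siCSRP2 and 2.34, 2.46 and 2.98 in siControl cells, again without overlap (difference 0.70, exact permutation p = 0.1, two-sided). That p is the smallest possible here. The contrast was chosen after PFDN2 was seen to be separated, so it is no further evidence for the call.

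**Figure D2:**
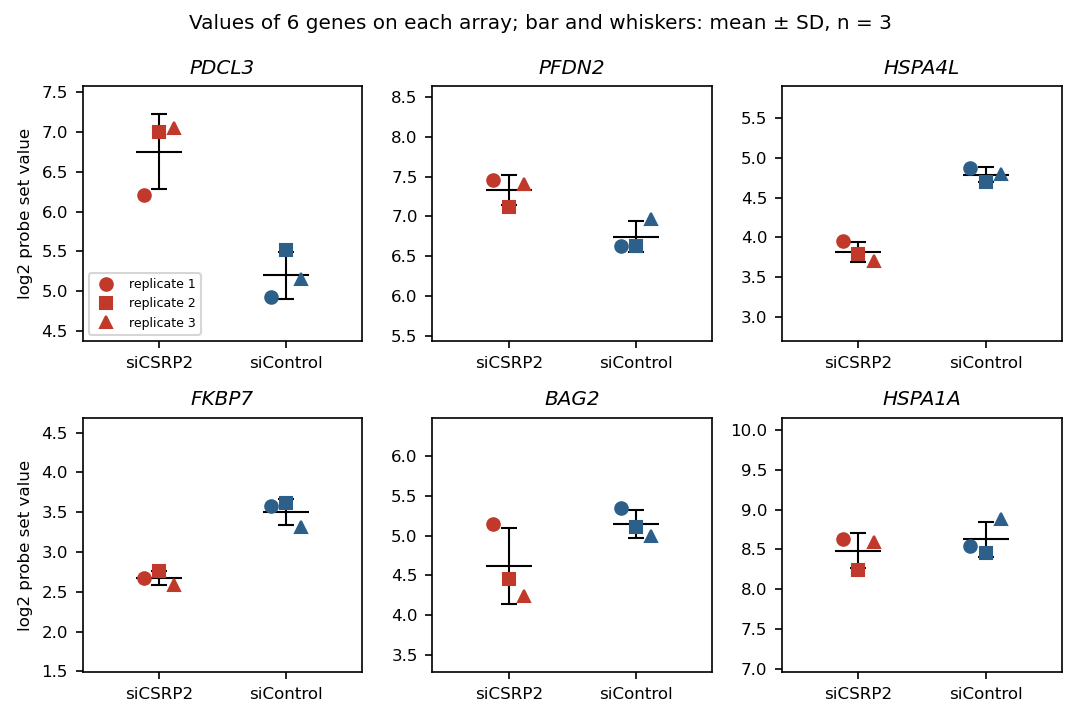
Log2 probe set values (vertical axes, each spanning the same number of log2 units) of PDCL3, PFDN2, HSPA4L, FKBP7, BAG2 and HSPA1A on each array, siCSRP2 left and siControl right; symbols mark replicate numbers, and bars with whiskers give mean ± SD (n = 3). The groups are apart for PDCL3, PFDN2, HSPA4L and FKBP7 and overlap for BAG2 (siCSRP2 1 at 5.15) and HSPA1A.

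HSP60, encoded by HSPD1 and the folding chamber of mitochondria, read 5.51, 5.4 and 5.17 in siCSRP2 and 5.98, 5.65 and 5.48 in siControl cells. siCSRP2 1 lay above siControl 3, so the groups overlapped. HSPD1 was lower in siCSRP2 in each of the 3 pairs of equal replicate number (-0.48, -0.24 and -0.31), but the log2 difference of -0.34 did not pass (95% interval -0.70 to 0.01, limma adjusted p = 0.222, or 0.0731 when blocked on replicate number).

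Of the 3 HSP110 genes, whose cytosolic proteins reset HSP70 by exchanging its nucleotide, HSPA4L fell and HSPA4 and HSPH1 did not pass. HSPA4L (probe set 16970536, chromosome 4), first described as an osmotic stress protein, read 3.95, 3.79 and 3.7 on the siCSRP2 arrays, against 4.87, 4.69 and 4.8 on the siControl arrays. The gap between the groups was wider than the range within either, and siControl 3 lay between the other controls. The means were 3.81 ± 0.12 in siCSRP2 and 4.79 ± 0.09 in siControl cells (SD, n = 3 each), a log2 difference of -0.97 (SE 0.11, 95% interval -1.23 to -0.71, limma adjusted p = 0.00535). HSPA4L fell in each of 17 alternative settings, each leave-out of 1 array included, with log2 differences between -1.06 and -0.81 and adjusted p up to 0.0368.

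HSPA4, its close relative, read 6.77, 6.58 and 6.88 in siCSRP2 and 7.14, 6.94 and 6.63 in siControl cells, with siControl 3 below siCSRP2 1 and siCSRP2 3 (log2 difference -0.16, 95% interval -0.51 to 0.19). HSPH1, an HSF1 target, read 7.45, 7.34 and 7.98 in siCSRP2 and 7.29, 7.12 and 7.73 in siControl cells, so that both replicate 3 arrays were the highest of their groups (log2 difference 0.21, -0.26 to 0.68). Within arrays, HSPA4L minus HSPA4 was -2.82, -2.79 and -3.18 in siCSRP2 and -2.28, -2.25 and -1.82 in siControl cells. HSPA4L minus HSPH1 was -3.51, -3.54 and -4.28 in siCSRP2 and -2.42, -2.43 and -2.92 in siControl cells. Neither contrast overlapped between the groups (differences -0.81 and -1.19, exact permutation p = 0.1 for each, two-sided). That p is the smallest possible here. Both contrasts were chosen after HSPA4L was seen to be separated, so they are no further evidence for the call.

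None of the 9 HSP70 genes passed the limma test. At an unadjusted p under 0.05 the count was 0 of 9 too, beside 23.7% of all genes, and blocking on replicate number gave 0 as well, beside 15.8%. HSPA1A and HSPA1B, neighbouring genes for the stress-inducible cytosolic HSP70, encode near-identical products, and their values are uncertain as readings of either gene alone. HSPA1A read 8.63, 8.24 and 8.59 in siCSRP2 and 8.54, 8.46 and 8.88 in siControl cells, and HSPA1B read 8.47, 8.24 and 8.37 against 8.44, 8.42 and 8.79. siControl 3 was the highest of the 6 arrays for both, and the other 5 arrays intermixed. The log2 differences were -0.14 (95% interval -0.50 to 0.21) and -0.19 (-0.50 to 0.11). The array holds 5 probe sets for each of these genes, with 3 of the HSPA1A sets giving identical values. The differences ran from -0.19 to -0.14 over the HSPA1A sets and from -0.29 to -0.19 over the HSPA1B sets.

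HSPA9, the HSP70 of mitochondria that pulls imported chains through the inner membrane, read 9.25, 9.14 and 9.16 in siCSRP2 and 9.1, 9.02 and 9.17 in siControl cells (log2 difference 0.09, 95% interval -0.15 to 0.32). This was the narrowest interval of the 28 genes. HSPA2, best known from the testis, read 3.09, 2.68 and 3.08 in siCSRP2 and 3.6, 3.42 and 2.93 in siControl cells. siControl 3 lay among the siCSRP2 arrays there, and the log2 difference of -0.37 (limma adjusted p = 0.291) passed without that array (-0.56, adjusted p = 0.0377). HSPA6, which is strictly stress-inducible, gave 0.04, HSPA1L -0.07, HSPA14 -0.06, HSPA12A 0.14 and HSPA12B -0.13. The last 5 genes read between 2.4 and 3.29 on every array, near the median gene mean, where a fold can understate a change.

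**Figure D3:**
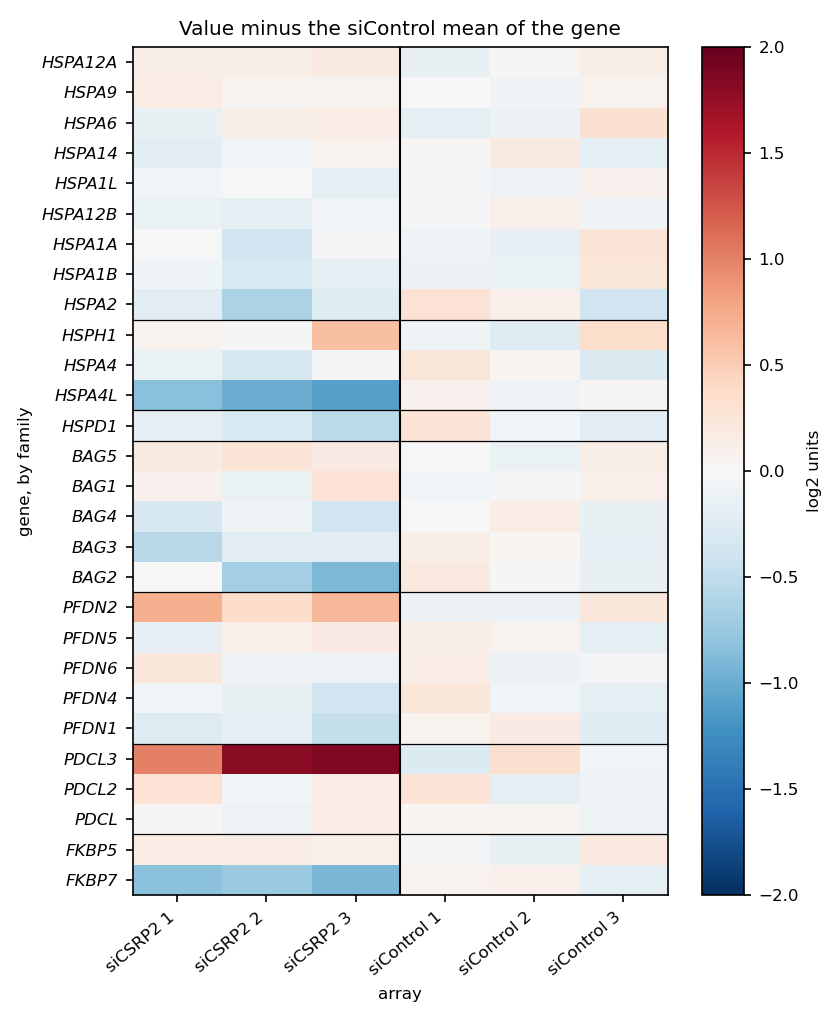
Value of each of the 28 genes on each array (columns, siCSRP2 left of siControl) minus its siControl mean, in log2 units (colour). PDCL3 and PFDN2 are above 0 on all siCSRP2 arrays, HSPA4L and FKBP7 below 0 on all of them, and HSPH1 is highest on replicate 3 of both groups.

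BAG proteins dock on HSP70 and steer its clients to refolding or disposal, and none of the 5 measured passed the test. BAG2, which restrains the ubiquitin ligase partner of HSP70, read 5.15, 4.46 and 4.24 in siCSRP2 and 5.34, 5.11 and 4.99 in siControl cells. siCSRP2 1 lay among the controls and the other siCSRP2 arrays below them all. The log2 difference of -0.53 did not pass (SE 0.22, limma adjusted p = 0.19), but it passed when blocked on replicate number (adjusted p = 0.0342, where 15.8% of all genes passed) and without siCSRP2 1 (-0.80, adjusted p = 0.0313, where 5.89% of all genes passed). It did not pass when the same block followed quantile normalization (-0.33, adjusted p = 0.167). BAG3, the HSF1 target that couples small heat shock proteins to autophagy, read 4.44, 4.79 and 4.79 in siCSRP2 and 5.14, 5.04 and 4.84 in siControl cells. The groups did not overlap, with siControl 3 just above siCSRP2 2 and 3, yet the log2 difference of -0.33 did not pass (95% interval -0.64 to -0.01, adjusted p = 0.195). BAG5, which inhibits HSP70-linked ubiquitin ligases, read 4.04, 4.13 and 4.03 in siCSRP2 and 3.86, 3.72 and 4.0 in siControl cells, with no overlap and a log2 difference of 0.20 (-0.05 to 0.46). BAG4, a silencer of death receptors, gave -0.27 and BAG1, a BCL2 partner, gave 0.08.

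FKBP7 (probe set 16905590, chromosome 2), a proline isomerase of the endoplasmic reticulum lumen, read 2.67, 2.76 and 2.59 on the siCSRP2 arrays, against 3.58, 3.61 and 3.32 on the siControl arrays. The groups did not overlap, and siControl 3 was the lowest control. The means were 2.67 ± 0.09 in siCSRP2 and 3.5 ± 0.16 in siControl cells (SD, n = 3 each), a log2 difference of -0.83 (SE 0.12, 95% interval -1.1 to -0.55, limma adjusted p = 0.00992). The siCSRP2 values lie under the median gene mean of 2.99, where a fold can understate a change, and no background level was set here. The call did not hold without siControl 1 (adjusted p = 0.053) or siControl 2 (0.0611). FKBP5, the HSP90 co-chaperone that dampens the glucocorticoid receptor, read between 1.99 and 2.34 on all arrays and gave 0.13 (-0.14 to 0.40).

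The groups were fully separated for 6 of the 28 genes, a share near that of all genes. PDCL3, PFDN2 and BAG5 were higher, and HSPA4L, FKBP7 and BAG3 lower, on every siCSRP2 array than on every siControl array. These are 21.4% of the 28, beside 27.7% of all genes. Without siControl 3, the array that stood apart, the 4 genes that had passed did so again in limma, with log2 differences of 1.53 for PDCL3, 0.7 for PFDN2, -0.96 for HSPA4L and -0.92 for FKBP7 (adjusted p 0.00155 to 0.00884), and HSPA2 joined them. At that setting 17.6% of all genes passed.

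**Figure D4:**
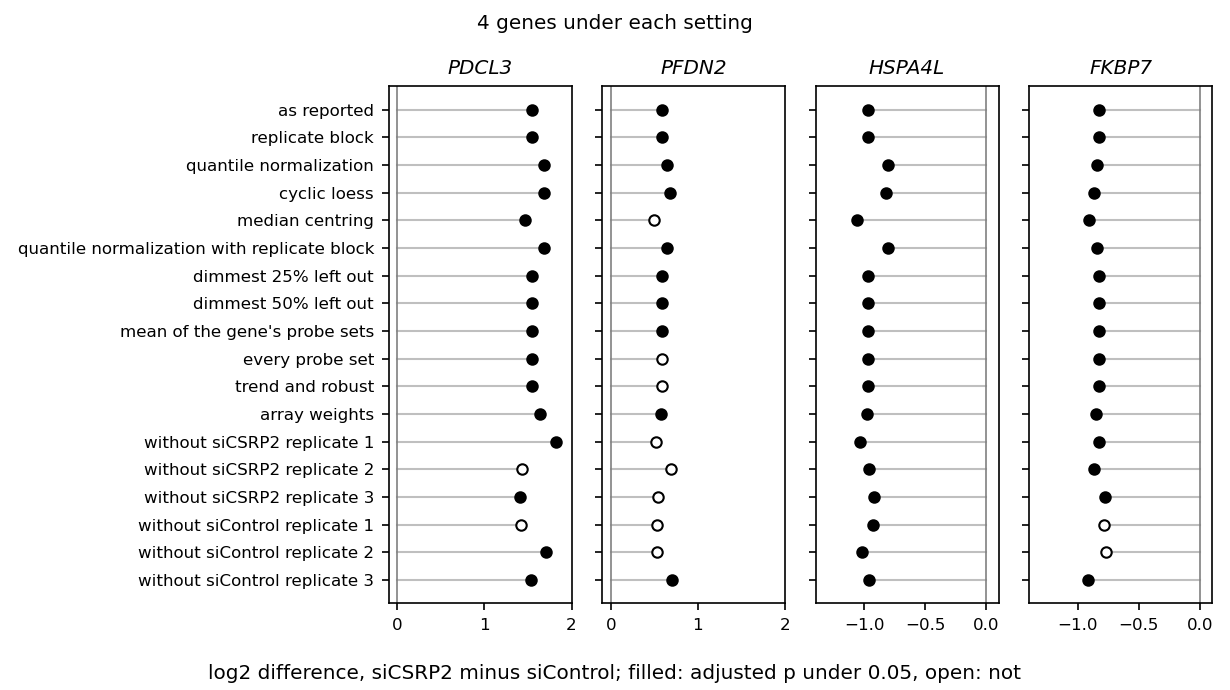
Log2 difference (siCSRP2 minus siControl, horizontal axes) of PDCL3, PFDN2, HSPA4L and FKBP7 as reported and under 17 other settings (rows); filled points have an adjusted p under 0.05 and open points do not. All points of a gene lie on 1 side of 0, and HSPA4L alone is filled in every row.

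Promoter sequences were read to see which of these genes carry heat shock elements just upstream of their starts. RefSeq windows (GRCh38.p14, 250 bases before to 50 after a start) were listed for 24 of the 28 genes, in 31 windows, and BAG4, HSPA12B, HSPA14 and PFDN2 had no entry. The heat shock element core GAANNTTC, which reads the same on both strands, stood in windows of BAG2, HSPA1A, HSPA1B, HSPA1L, HSPA6, HSPD1 and PFDN6, in 25.8% of the 31 windows and 6.77% of 35116 windows of all genes. Windows can overlap: HSPA1A and HSPA1L, which run in opposite directions, share 1 core, and so do both windows of PFDN6, so that the 8 windows hold 7 distinct cores in the genome. Its extension by a further GAA unit 2 bases on, searched on both strands, contains the core and stood in windows of HSPA6 and HSPD1 (0.49% of all windows). Of the 7 genes with the core, none passed the test, where 7.34% of all genes did. BAG2 passed when blocked on replicate number, where 15.8% of all genes did. With 7 genes, these counts do not set genes with the core apart. The core was not found in the windows of PDCL3, HSPA4L and FKBP7. The endoplasmic reticulum stress element, CCAAT and CCACG with 9 bases between them on either strand, was in none of the 31 windows and in 0.0769% of all.

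The stress-inducible HSP70 promoters are shown first. In HSPA1A (chr6:31815373-31815492, plus strand, bases -170 to -51 from the start) and HSPA1B (chr6:31827568-31827687, plus strand, same span), capitals mark the core GAANNTTC and the CCAAT boxes, which lie on the opposite strand and read ATTGG. In HSPA6 (chr1:161524420-161524539, plus strand, bases -120 to -1) they mark the longer element on the opposite strand.
HSPA1A: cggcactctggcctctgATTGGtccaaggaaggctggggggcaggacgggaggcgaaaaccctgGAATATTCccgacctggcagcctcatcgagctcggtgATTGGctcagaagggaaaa
HSPA1B: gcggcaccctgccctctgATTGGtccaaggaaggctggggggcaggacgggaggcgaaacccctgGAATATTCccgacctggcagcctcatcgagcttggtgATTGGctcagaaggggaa
HSPA6: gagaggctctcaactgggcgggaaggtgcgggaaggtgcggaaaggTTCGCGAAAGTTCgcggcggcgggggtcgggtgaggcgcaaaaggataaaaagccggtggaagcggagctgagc
HSPA1A and HSPA1B shared 122 of 128 bases around the core, and CCAAT on either strand stood in 34.6% of all windows.

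The promoters of 3 genes that passed the test are shown for comparison, each over bases -120 to -1, with capitals for the GC box GGGCGG on either strand. This motif was added after the values were seen, and 45.0% of all windows hold it. So do 74.2% of the 31 windows of the members, those of HSPA1A, HSPA1B and HSPA6 included. It is not marked in the HSP70 stretches above, where HSPA6 holds it at bases -105 to -100. PDCL3 lies at chr2:100562873-100562992 on the plus strand and FKBP7 at chr2:178478601-178478720 on the minus strand. HSPA4L is at chr4:127781676-127781795 on the plus strand, before the most upstream of its 3 listed starts.
PDCL3: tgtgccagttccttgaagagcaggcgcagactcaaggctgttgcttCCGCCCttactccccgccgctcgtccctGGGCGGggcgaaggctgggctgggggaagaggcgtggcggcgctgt
FKBP7: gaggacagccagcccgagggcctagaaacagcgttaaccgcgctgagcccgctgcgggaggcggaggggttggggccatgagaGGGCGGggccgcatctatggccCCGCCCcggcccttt
HSPA4L: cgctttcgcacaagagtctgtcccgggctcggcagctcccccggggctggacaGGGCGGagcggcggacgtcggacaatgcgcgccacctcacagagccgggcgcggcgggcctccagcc
PDCL3 and FKBP7 hold 2 such boxes each in this span and HSPA4L holds 1.

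Members grouped by how they are known to be induced or by where their proteins work gave small numbers. Of 16 listed HSF1-induced members 7 were measured, and HSPA4L fell while HSPA1A, HSPA1B, HSPA4, HSPH1, HSPD1 and BAG3 did not pass (median -0.19). That is 14.3%, beside 7.34% of all genes. HSPA6 was not on that list and did not pass either (0.04, limma adjusted p = 0.9). Of 18 listed members of the endoplasmic reticulum only FKBP7 was measured. Of 10 mitochondrial members HSPD1 and HSPA9 were measured, and neither passed.

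Genes that the symbol rule did not take were read from 4 further lists. The lists cover co-chaperones, heat shock factor targets, endoplasmic reticulum folding and stress, and mitochondrial protein quality control. Many of these genes encode no chaperone, such as import receptors, proteases and stress regulators. Of 90 genes 59 were measured, and 10 fell (16.9%), 0 rose and 49 did not pass, with a median log2 difference of -0.19. The test is limma with adjustment over all genes, of which 0.8% rose and 6.54% fell. At an unadjusted p under 0.05 stood 20 of the 59, beside 23.7% of all genes. When blocked on replicate number 14 fell and 1 rose, where 13.1% of all genes fell and 2.67% rose. The count depended on the setting: 6 passed after quantile normalization (1 rose, 5 fell), 1 without siControl 1 or without siControl 2, and 21 without siControl 3. The count over all 14884 genes moved too. It was 876 after quantile normalization, 157 without siControl 1, 91 without siControl 2 and 2620 without siControl 3. Without the dimmest 50% of genes, 56 list genes remained, of which 11 fell and 1 rose. Of the 7442 genes kept there, 1141 fell and 149 rose, and their median log2 difference was -0.15. A gap between these shares was not tested.

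Of 20 measured folding and unfolded protein response genes of the endoplasmic reticulum, 5 fell, 0 rose and 15 did not pass (median -0.14). Of all genes 6.54% fell. When blocked on replicate number 7 fell, where 13.1% of all genes did. That block in limma added the J-protein partner SDF2L1 (-0.99, adjusted p = 0.00902) and the secreted stress protein CRELD2 (-0.40, adjusted p = 0.0447). HYOU1, the HSP110 of this compartment, read 5.16, 5.37 and 5.11 in siCSRP2 and 6.51, 6.66 and 6.5 in siControl cells. That fall of 1.34 on the log2 scale was past the threshold (SE 0.12, limma adjusted p = 0.00228), without overlap, so that HYOU1 and HSPA4L fell among the 4 HSP110 genes measured. The lectin chaperone calreticulin, CALR (-0.63), the secreted stress factor MANF (-0.61), the pseudokinase TRIB3 (-0.58) and the translocon J-protein SEC63 (-0.46) fell as well. The stress regulators XBP1 (0.35, adjusted p = 0.122 by limma), ATF4 (0.10) and DDIT3 (-0.11) did not pass.

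Of 18 measured HSP90 and HSP70 co-chaperones, 3 fell, 0 rose and 15 did not pass (median -0.25), where 6.54% of all genes fell. HYOU1, counted above too, and the HSP90 partner CDC37L1 (-0.54) fell. So did TOMM70 (-1.22), the mitochondrial outer membrane receptor on which HSP70 and HSP90 dock. The block on replicate number added NUDCD2 (-0.47, adjusted p = 0.0202), a partner of HSP90. VBP1, the other alpha-type prefoldin subunit, gave -0.25 and TRAP1, the HSP90 of mitochondria, gave -0.45, and neither passed. Of 16 mitochondrial quality control genes, 4 fell, 0 rose and 12 did not pass (median -0.26): TOMM70, the import receptor TOMM20 (-0.75), the protease subunit AFG3L2 (-1.12) and the presequence protease PITRM1 (-0.72). The block added 1 rise, that of HSCB (0.60, adjusted p = 0.0181), a J-protein of iron-sulfur cluster assembly. Of 11 measured heat shock factor genes and HSF1 targets 0 passed, with 1 at an unadjusted p under 0.05 (limma, median -0.12), where 23.7% of all genes stood. That gene, the HSF1-binding protein HSBP1 (-0.55), fell when blocked on replicate number (adjusted p = 0.0168). HSF1 itself read 5.21, 5.84 and 5.33 in siCSRP2 and 5.2, 5.78 and 5.32 in siControl cells, with the groups intermixed.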

How the data were processed

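Total RNA of 6 Hs578T samples was read on Affymetrix HuGene 2.0 arrays. The table the authors deposited holds a single value for each probe set on each array, taken as log2 from its range. Per the submitters' processing notes Partek was used, for unstated steps. How background, summarisation and normalization were handled, and on which build, is not stated in what was used here; the array quartiles differ. Of 53617 probe sets, 16098 had 1 gene symbol in the platform table, 0 had several and 37519 had no gene listed, so they are unnamed here. Each of 14884 genes was represented by its brightest probe set on average, symbols and biotypes coming from RefSeq (GRCh38.p14). The 28 members had 41 probe sets, and 4 members had several.

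Groups and replicate numbers came from sample titles. limma 3.58.1 in R 4.3.3 (lmFit, eBayes, group only) was fitted on all genes, two-sided, p-values being adjusted by Benjamini-Hochberg over the 14884 genes (threshold 0.05). It was tested on simulated data. Single values had an exact permutation test of 3 against 3 arrays. Deviations from group means correlated at 0.19 to 0.32 between arrays of equal number (-0.26 to 0.05 otherwise), with all 3 over 0.1. Centring groups of 3 pulls the other correlations down when those of equal number are positive, so these values do not establish a pairing. Pairing by number was taken from these data, not the labels, and a replicate block is only an alternative. Other alternatives were scalings, dim-gene filters of 25% and 50%, other probe set rules and variance models, and leaving out each array.

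The members, gene lists and tests were chosen with earlier results of these data known. Named are CSRP2, all 28 members and list genes past the threshold. Also named are XBP1, ATF4, DDIT3, VBP1, TRAP1, HSF1, HSBP1, SDF2L1, CRELD2, NUDCD2 and HSCB, picked after their values were seen. The number of arrays limits the precision.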

Additional observations from a re-analysis of the deposited data

How the results depend on the processing

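Over 17 alternative settings, HSPA4L kept its direction and stayed past the threshold in all, PDCL3 and FKBP7 in 15 each and PFDN2 in 9, and no log2 difference of these 4 genes changed sign. With the replicate number as a block, 5 members passed (BAG2 added, at -0.53 and adjusted p = 0.0342), 2348 of all genes passed, and no other call among the members changed. Array weights added BAG2 (-0.63) and HSPA2 (-0.57). With 1 array left out, between 1 and 5 members passed, between 91 and 2620 of all genes (194 without siCSRP2 2, 285 without siCSRP2 3, 157 without siControl 1, 91 without siControl 2, 2620 without siControl 3), and between 1 and 21 genes of the outside lists (3 without siCSRP2 2, 4 without siCSRP2 3, 1 without siControl 1 or 2, 21 without siControl 3). Fits with fewer arrays have fewer degrees of freedom; the cause of the rise without siControl 3 was not tested. Of all genes, 876 passed after quantile normalization, 884 after cyclic loess and 1070 with a trended and robust variance. With quantile normalization and the replicate block together 2010 passed, 506 of 53617 when all probe sets were tested, and 2924 with array weights. Of the outside lists, 6 genes passed after quantile normalization, after cyclic loess and with a trended and robust variance, 4 when all probe sets were tested and 19 with array weights. The members' median was -0.15 after median centring (all genes -0.07) and -0.14 without the dimmest 50% of genes (all genes -0.15). After cyclic loess 77.7% of all calls were falls, and after median centring 94.5%.

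Differences near 0 that never passed changed sign. After median centring these were BAG1 (-0.01), HSPA6 (-0.04), HSPA9 (-0.00034), PDCL (-0.06), PFDN5 (-0.05) and PFDN6 (-0.07). HSPA6 turned after quantile normalization with or without the block (-0.03) and cyclic loess (-0.04), and PDCL and PFDN6 with array weights (-0.04 each). With 1 array left out, BAG1 ran from -0.03 to 0.18, HSPA6 from -0.05 to 0.19, HSPA14 from -0.16 to 0.03, PDCL from -0.04 to 0.09, PFDN5 from -0.06 to 0.14 and PFDN6 from -0.09 to 0.08. No detection calls were used here, so dim genes have no marked limit.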
